A study of Mus musculus with 6 samples.

Results

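The adult heart of mice lacking the microRNA miR-214 (KO) was compared with the adult heart of wild-type (WT) mice. The comparison rests on 2 of the 6 arrays of the study, the array labelled miR-214 KO and the array labelled WT from hearts of 8-week-old mice. Both groups were male mice of a mixed strain background per the labels, which do not describe how the miR-214 allele was made. Each array carried cDNA pooled from 3 mice, so every difference below compares 2 pools, has no replicate check and is given without a test. The other 4 arrays held the heart at postnatal day 14 (P14) and the tibialis anterior, a fast leg muscle, at 8 weeks, each as 1 KO and 1 WT pool of 3 mice.

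MicroRNAs are short RNAs that guide the Argonaute proteins to messenger RNAs carrying matches to the seed, bases 2 to 8 of the microRNA, and lower the output of those messages. miR-214 is cut from Dnm3os, an RNA transcribed within the Dnm3 gene on the opposite strand. In the heart it is known for targeting Slc8a1, the sodium-calcium exchanger, and genes that act downstream of calcium overload and in cell death.

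The sequences of both arms of the missing hairpin are shown because they define what the KO heart lacks, with the seed in capitals. In the RefSeq table of build GRCm38.p6 the hairpin lies at chr1:162223368-162223477 on the plus strand.
mmu-miR-214-3p: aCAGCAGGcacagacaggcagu
mmu-miR-214-5p: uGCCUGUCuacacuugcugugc
The 3p arm lies at chr1:162223438-162223459 and the 5p arm at chr1:162223397-162223418. Among the mouse microRNAs of that table, mmu-miR-761 has the same seed as the 3p arm, CAGCAGG. Neither arm has a value on these arrays, and loss of miR-214 itself could not be read from them.

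Intensities below are the mean brightness of the beads of a probe before any correction, given with the bead standard error where ± is used. That error covers the reading of 1 array and nothing about animals. Differences are KO minus WT in log2 intensity after background correction and quantile normalization. A probe counted as detected when its detection p, which sets its signal against negative control beads, was under 0.01. Of 45281 probes, 18276 (40.4%) were detected on at least 1 of the 2 adult heart arrays, 15789 on both, 369 on the KO array only and 2118 on the WT array only. The KO array detected 35.7% of probes and the WT array 39.5%. Each gene is represented by its brightest detected probe, which gave 10098 genes, and a gene seen on a single array has a lower bound in place of a fold.

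The tissue matched its label. Myh6, the adult cardiac myosin, read 26187 in the KO heart and 28177 in the WT heart, and the ventricular light chain Myl2 read 23553 and 25206. The sex label was not matched. Xist, the RNA that coats the inactive X chromosome, was detected at 1173 ± 35 in the KO heart and 1499 ± 25.2 in the WT heart, while the Y-linked genes Eif2s3y, Kdm5d and Uty stayed under detection on both arrays. This holds for both pools, so no result could be given without them.

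The 2 hearts were alike for most genes. Of the 10098 genes, 90.1% differed by less than 1.5-fold, the median difference was 0.00 and 95% of genes lay between -0.61 and 0.83. In the KO heart 119 genes (1.18%) stood above the WT heart by 2-fold or more, and 39 (0.386%) stood below it by as much. With arrays only centred on their medians these counts were 76 and 54. At 1.5-fold the counts were 697 higher (6.9%) and 305 lower (3.02%). Above 0 were 44.8% of genes and below 0 were 50.2%, and the gene lists below are read against these shares. A second detected probe existed for 33 of the 119 higher genes and for 17 of the 39 lower genes. The mean difference of the other probes had the same sign for 26 and 15 of these.

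**Figure D1:**
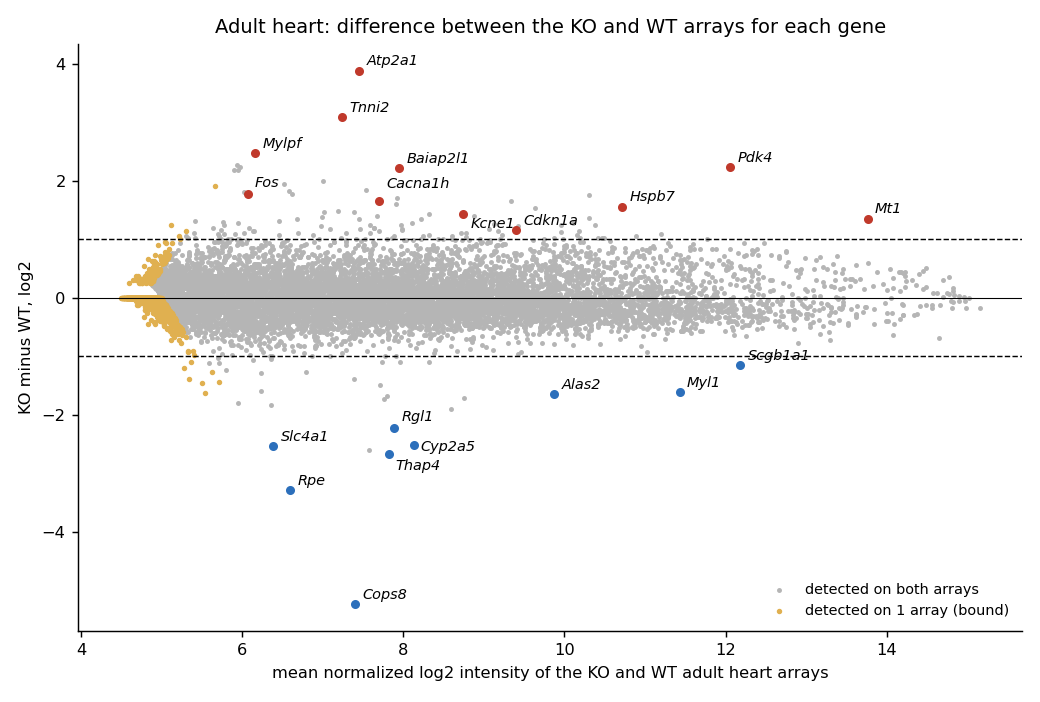
Each point is 1 gene, with its mean normalized log2 intensity over the KO and WT adult heart arrays on the horizontal axis and the KO minus WT difference on the vertical axis. Dashed lines mark 2-fold, orange points are genes detected on 1 array and drawn at their bound, and a few genes named in the text are labelled. Most genes lie near 0, with Atp2a1 (3.88) at the top and Cops8 (-5.23, a bound) at the bottom.

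The host RNA and the known targets came first. Dnm3os read 91.7 ± 4.07 in the KO heart and 106 ± 5.31 in the WT heart, a difference of -0.25, and Dnm3 was not detected. Where the Dnm3os probe lies relative to the altered allele is not known, so its presence checks nothing about the allele.

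Slc8a1 read 2737 ± 90.1 in the KO heart and 2737 ± 79.7 in the WT heart, a difference of -0.06. That is as large as the bead standard error of the difference, 0.06. Camk2d, a calcium-dependent kinase, read 301 ± 15.2 in the KO heart and 437 ± 12.3 in the WT heart (-0.54). Its 6 other detected probes ranged from -0.63 to 0.32. Only the probe that read 98.8 and 88.7 lay above 0 (0.32), and the rest, some of them as dim, lay below it. Ppif, cyclophilin D of the mitochondrial permeability pore, read 5379 ± 116 in the KO heart and 6334 ± 119 in the WT heart (-0.39). Bcl2l11, the cell death activator Bim, was the target that stood higher, at 324 ± 11.8 in the KO heart and 216 ± 6.8 in the WT heart (0.75). A second Bcl2l11 probe read 140 and 123 (0.32).

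Of 10 other published targets that were detected, 4 lay above 0 and none passed 1.5-fold, with a median of -0.05. The growth factor receptor Fgfr1 read 75 in the KO heart and 61.9 in the WT heart (0.56). Xbp1, a transcription factor of the unfolded protein response, read 1320 and 1811 (-0.52), and Ctnnb1, beta-catenin, read 1824 and 2429 (-0.44). In the BCL2 family 6 of 13 detected members lay above 0, with Bcl2l11 and the death promoter Bad (325 in the KO heart, 237 in the WT heart, 0.60) past 1.5-fold. Bnip3l, a receptor for mitophagy, read 819 and 1372 (-0.80) and the survival gene Mcl1 read 2453 and 3284 (-0.50). The survival genes Bcl2 (126 and 105, 0.44, other probes 0.00 to 0.70) and Bcl2l1 (306 and 268, 0.31, other probes 0.61 and 0.74) lay above 0. Bbc3, another death promoter, lay below it (120 and 136, -0.18). Among genes of the permeability pore and of mitochondrial calcium uptake 8 of 10 lay below 0, with a median of -0.27. Mcu, the pore of the mitochondrial calcium uniporter, read 80.9 and 115 (-0.71), though its other detected probe gave -0.21.

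The highest differences were those of fast skeletal muscle genes. Atp2a1, the calcium pump of fast fibres, read 662 ± 19.1 in the KO heart and 80 ± 4.06 in the WT heart (3.88). Tnni2, the fast troponin I, read 448 ± 12.8 and 86.5 ± 4.57 (3.09). Mylpf, the fast regulatory light chain, read 195 ± 10.5 and 63.4 ± 3.61 (2.47), and its other probe gave 1.78. These 3 genes sat near the detection limit in the WT heart and clearly above it in the KO heart. Pvalb, the calcium buffer of fast fibres, was detected in the KO heart only (73.8 and 52.2), at least 1.54-fold higher. The other members of the fast fibre list lay below 0 or were not detected. Tnnc2, Tnnt3, Actn3, Myh1 and Myh4, which encode core proteins of the fast sarcomere, were under detection in both adult hearts. Myl1, which is also made in the atria, read 1510 ± 23.2 in the KO heart and 4251 ± 80.8 in the WT heart (-1.61), and its 2 other probes ranged from -1.85 to 0.00. Of 17 list genes on the array 8 were detected, 4 above 0 and 4 below, with summed background-corrected intensities of 3509 in the KO heart and 5355 in the WT heart. Without Myl1, left out after its values were seen, the sums were 2049 in the KO heart and 1152 in the WT heart, so that gene decided the direction. The list median of 0.24 ranged from 0.03 to 1.16 across processing settings. In these bulk samples, more cells of a type and more RNA per cell cannot be told apart.

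The other highest genes had varied roles. Pdk4, the kinase that restrains pyruvate oxidation, read 9013 ± 265 in the KO heart and 1816 ± 44.3 in the WT heart (2.23). It was the brightest of the genes past 4-fold. Baiap2l1, an actin and membrane adaptor, read 536 ± 14.4 and 151 ± 7.12 (2.21). Csrnp1, an immediate early nuclear factor, read 363 ± 15.9 and 133 ± 7.57 (1.84), and Psca, a cell surface antigen, read 277 ± 21.7 and 99.6 ± 5.26 (1.99). Clca1, a secreted protein of mucous epithelium, read 164 ± 7.42 in the KO heart and 60.7 ± 3.31 in the WT heart (2.27), and its other probe gave 2.21. Lars2, the mitochondrial leucyl-tRNA synthetase (2.23), Nudt6, a Nudix hydrolase (2.18), and Urah, an enzyme of urate breakdown (2.18), had intensities of 156 to 164 in the KO heart and 60.8 to 61.8 in the WT heart. These low readings were close to the lowest detected signals, 64.7 in the KO heart and 59.4 in the WT heart. Among the 151 genes detected in the KO heart only, 5 were at least 2-fold higher. The 4 largest bounds were those of Lypd1, a regulator of nicotinic receptors (at least 3.75-fold higher), the apolipoprotein gene Apoa2 (at least 2.36-fold), 4930481A15Rik (at least 2.21-fold) and the lymphatic growth factor Vegfd (at least 2.07-fold). Of these, Lypd1 passed 2-fold under each of 9 other processing settings, Apoa2 and 4930481A15Rik under 6 of 9, and Vegfd under 5 of 9.

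The lowest differences included Cops8 and Rpe, both under detection in the KO heart. Cops8, a subunit of the COP9 signalosome, read 56.4 ± 2.19 in the KO heart and 1141 ± 28.5 in the WT heart, at least 37.6-fold lower. Rpe, the ribulose phosphate epimerase of the pentose phosphate pathway, read 63.2 ± 3.12 and 343 ± 12, at least 9.75-fold lower. Thap4 read 121 ± 5.57 and 590 ± 15.3 (-2.67), the importin Ipo9 read 110 ± 7.42 and 491 ± 18.4 (-2.59), and Rgl1, a guanine nucleotide exchange factor for Ral, read 140 ± 5.89 and 532 ± 16 (-2.23). No second detected probe exists for any of these 5 genes, so less RNA and weaker binding of the probe to the KO transcript cannot be told apart for them. Other probes of Lgr6 and Mcm6 had the same sign. Lgr6, an R-spondin receptor, read 75.7 ± 2.24 in the KO heart and 190 ± 9.81 in the WT heart (-1.83, other probe -1.53). Mcm6, a subunit of the replication helicase, read 66 ± 2.44 and 151 ± 6.38 (-1.79, other probes -1.56 and -1.48). Ptcd3, a factor of the mitochondrial small ribosomal subunit, read 150 ± 6.9 and 423 ± 16.1 (-1.72). The protease gene Ctsc, cathepsin C, read 155 ± 4.34 and 427 ± 10.8 (-1.68), and its 2 other probes ranged from -1.65 to -0.99.

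Genes past 2-fold downward were unevenly placed in the genome. On chromosome 1, which carries Mir214, 12 of 541 detected genes (2.22%) were at least 2-fold lower in the KO heart, against 27 of 9548 (0.283%) on the other chromosomes. Besides Cops8, Rpe, Thap4, Ipo9, Rgl1, Lgr6, Mcm6 and Myl1 these were Gin1, Gal3st2, Angptl1 and Stk25. Gin1 and Gal3st2 were detected in the WT heart only, at least 2.62-fold and 2.28-fold lower in the KO heart. Angptl1, a secreted angiopoietin-like protein, read 68.4 and 113 (-1.12), and the kinase Stk25 read 197 and 371 (other probe -0.89). In the upward direction chromosome 1 held 9 of 541 genes past 2-fold (1.66%), near the 1.18% of all genes. The median difference of chromosome 1 genes was -0.04. The part of the chromosome segment linked to Mir214 in these values was not tested.

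**Figure D2:**
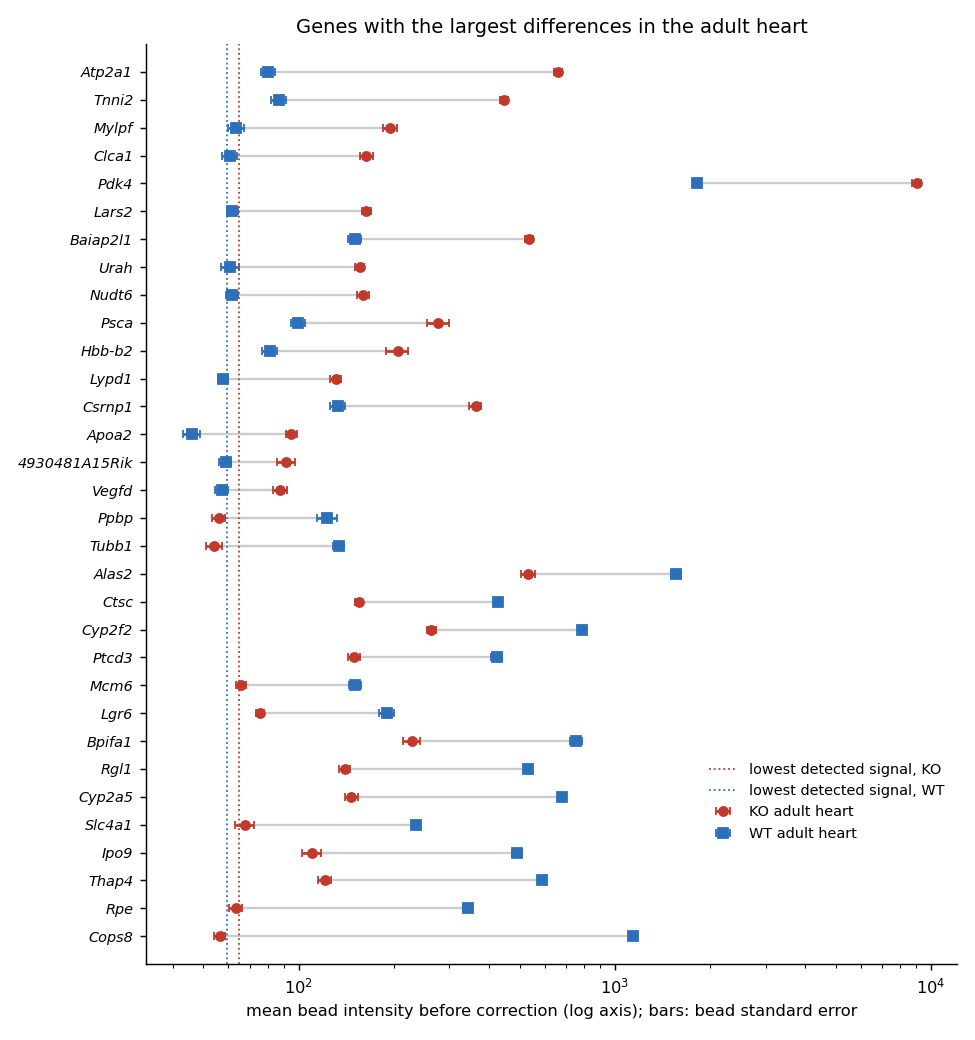
Intensities before correction on a log axis, with KO hearts as red circles, WT hearts as blue squares and bead standard errors as bars, for the 12 highest and 12 lowest genes detected on both arrays and the 4 largest bounds in each direction. Dotted lines mark the lowest detected signals, 64.7 on the KO array and 59.4 on the WT array. Many of the highest genes lie near that limit in the WT heart, while Pdk4 and Alas2 lay well above it on both arrays.

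Energy metabolism split by pathway. Subunits of oxidative phosphorylation, which pass electrons to oxygen and make ATP, were mostly higher in the KO heart. In complex I 30 of 34 detected subunits lay above 0 and 14 were at least 1.5-fold higher (6.9% of all genes were), with a median of 0.52. Ndufb7 read 1558 in the KO heart and 835 in the WT heart (0.96), Ndufb4 read 178 and 115 (0.91), and Ndufa11 read 6613 and 3534 (0.82). Ndufb10 had the largest difference, 2208 and 699 (1.75), but its other probe gave 0.15. The members furthest below 0 were Ndufv1 and Ndufa10. Ndufv1, which binds the flavin and NADH, read 16471 and 17286 (-0.30), Ndufa10 read 9942 and 10070 (-0.19), and Ndufs3 differed by 0.00.

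All 12 detected complex IV subunits lay above 0, 3 of them past 1.5-fold, with a median of 0.39. Cox6a1 read 4660 in the KO heart and 2274 in the WT heart (other probe 0.83) and the heart isoform Cox7a1 read 25681 and 16127 (0.51). In complex V 11 of 15 lay above 0 and 4 passed 1.5-fold, with a median of 0.31. Atp5g2, a subunit of the rotor ring, read 1414 and 829 (0.82), while the catalytic subunit Atp5b read 25225 and 24822 (0.01). Complexes II and III did not share the shift, with 5 of 11 above 0 and a median of -0.07 that was 0.11 with median centring. Uqcr11 read 16659 and 9746 (0.59) and the core protein Uqcrc2 read 14885 and 17081 (-0.45).

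Ribosomal protein genes were shifted in the same direction. Of 55 detected genes of the cytosolic ribosome 50 lay above 0 and 19 were at least 1.5-fold higher, with a median of 0.47. Rps26 read 3302 in the KO heart and 1497 in the WT heart (1.09), Rpl36a read 1986 and 1041 (0.97), and Rps19 read 7032 and 3647 (0.84, other probe 0.00). Rpl30 had the largest difference, 312 and 162 (1.24, other probe 0.77). Among those below 0 was Rpl3l, the striated muscle form of Rpl3 (13758 and 13196, -0.19). In the mitochondrial ribosome 58 of 73 genes lay above 0 and 16 were at least 1.5-fold higher, with a median of 0.30. Mrpl14 read 1638 and 785 (1.14) and Mrps12 read 1838 and 939 (1.03), whereas Mrpl35 read 80.3 and 154 (-1.29). Proteasome subunits were close to the background, with a median of 0.09 and 4 of 33 past 1.5-fold upward, of which Psmb1 was the highest (1574 and 792, 1.07).

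A property of the gene models moved with these lists. Genes were ordered by genomic span and divided into 4 groups of near equal size, span being the distance from the first to the last base of a gene in the RefSeq table, known for 10087 of the 10098 genes. In the group with the shortest spans, up to 9.55 kb, 60% of genes lay above 0 and 15% were at least 1.5-fold higher, with a median of 0.12. In the group with the longest spans, from 54.5 kb, the shares were 36.8% and 2.34% and the median was -0.05. At P14 the medians of the groups with the shortest and longest spans were 0.17 and -0.10, and in the tibialis anterior 0.00 and -0.05. Across genes, which are not independent replicates, the rank correlation of the difference with span was -0.23. The group with the shortest spans held 53 of 55 cytosolic ribosomal genes, 48 of 73 mitochondrial ribosomal genes and 22 of 34, 9 of 12 and 13 of 15 subunits of complexes I, IV and V. Among its genes that were also in the brightest of 4 groups by intensity, with the oxidative phosphorylation and ribosomal lists left out, 58.3% of 618 lay above 0 and 18.1% were at least 1.5-fold higher, with a median of 0.09. Among genes of the longest spans that were also in the brightest group, 25.7% of 510 lay above 0, with a median of -0.18. The part of gene span in the results of the lists above and below was not tested.

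The pathways that feed the respiratory chain lay on the other side of 0, by small amounts. Of all genes in the brightest of 4 groups by intensity, 41.2% lay above 0, with a median of -0.08. The part of brightness in the list medians was not tested. Of 23 detected genes of the citric acid cycle and pyruvate oxidation 19 lay below 0, with a median of -0.21. Pdhb, a subunit of pyruvate dehydrogenase, read 2580 in the KO heart and 3638 in the WT heart (-0.57), its 2 other probes averaging -0.04, and Idh2 read 6961 and 8583 (-0.49). Pdk4 was the only member of this list past 1.5-fold upward. Glycolysis and glycogen genes lay below 0 in 25 of 26 cases, with a median of -0.29 and none past 1.5-fold. The insulin-responsive glucose transporter Slc2a4 read 1480 and 2037 (-0.51), Eno3 read 14076 and 15498 (-0.39), and only Pgam2 lay above 0 (7315 and 5606, 0.20).

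Fatty acid oxidation, the main fuel pathway of the adult heart, had a median of -0.12 with 8 of 23 genes above 0. Acaa2, the last enzyme of the spiral, read 5849 in the KO heart and 7396 in the WT heart (-0.53). Genes that respond to the fatty acid receptors of the PPAR family were mostly above 0, with 14 of 19 above 0, 5 at least 1.5-fold higher and a median of 0.20. After Pdk4, the mitochondrial carrier Ucp3 read 242 ± 15.8 and 114 ± 6.45 (1.47, other probe 1.70). Angptl4, an inhibitor of lipoprotein lipase, read 434 ± 13.1 and 211 ± 8.72 (1.27), and the acyl-CoA thioesterase Acot1 read 612 and 364 (0.88). Other PPAR-responsive genes, such as Cpt1b (4347 and 4818, -0.27), did not stand higher. Of ketone body genes 3 were detected, Bdh1 (340 and 280, 0.40) and Acat1 (160 and 137, 0.36) above 0 and Oxct1 (9329 and 9771, -0.25) below it. Branched-chain amino acid breakdown had a median of -0.19, with 3 of 14 above 0 and the mitochondrial aminotransferase Bcat2 the highest (1409 and 689, 1.12).

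**Figure D3:**
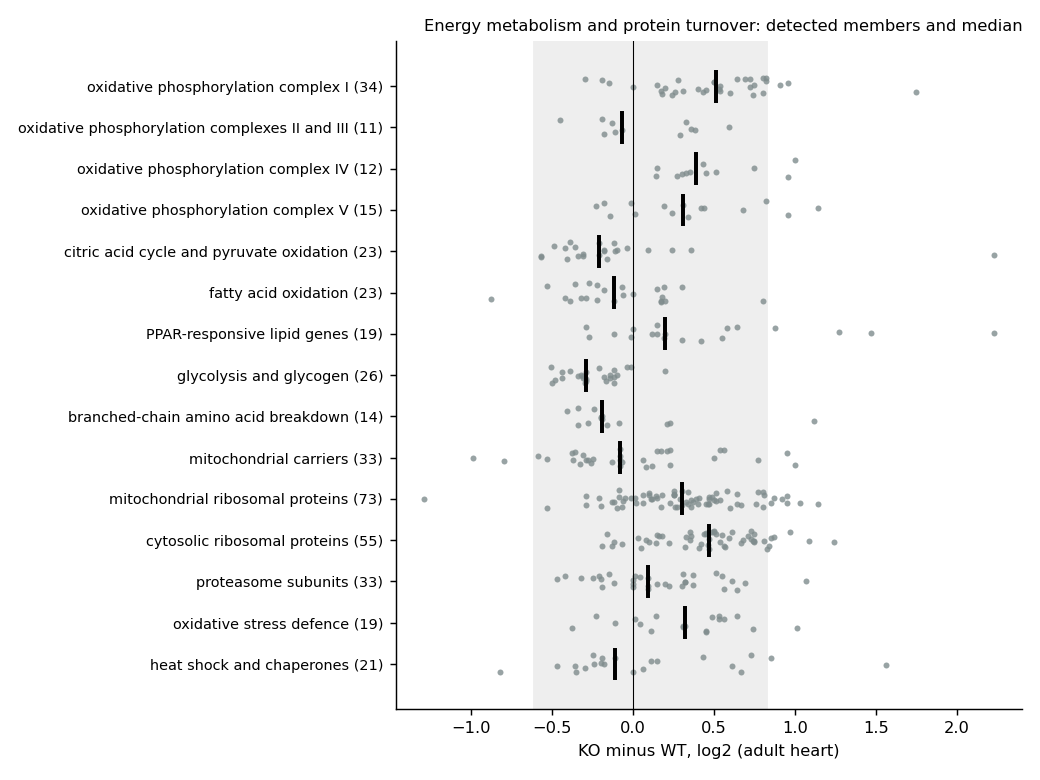
KO minus WT log2 differences of the detected members (points) and the list median (black bar) for lists of energy metabolism, ribosomes, proteasome and stress defence, with the number of detected members in brackets. The grey band holds 95% of all genes, -0.61 to 0.83. Complex I (median 0.52) and cytosolic ribosomal proteins (0.47) lie right of 0, and glycolysis and glycogen (-0.29) lies left of 0 with its 26 members inside the band.

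The contractile apparatus was nearly the same in both hearts. Of 23 detected sarcomere genes none passed 1.5-fold upward and 1 passed it downward, with a median of -0.04. The M-band protein Myom2 read 13824 in the KO heart and 18098 in the WT heart (-0.63), and Actc1, cardiac actin, read 27514 and 27365 (0.05). Calcium cycling genes lay slightly below 0 in 18 of 24 cases, with a median of -0.11. Their median span was 80.8 kb, within the range of the group with the longest spans. Atp2a2, the cardiac calcium pump, read 27638 and 29272 (-0.05), Ryr2, the release channel, read 5418 and 5828 (-0.27), and Pln, the brake on the pump, read 3607 and 4237 (-0.33). Only Ppp1r1a, an inhibitor of protein phosphatase 1, passed 2-fold (231 ± 16.2 and 126 ± 4.77, 1.17).

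Electrical genes varied more. Of 21 detected channels and gap junction genes 13 lay below 0, with a median of -0.24, 3 members past 1.5-fold upward and 2 downward. Gja1, connexin 43 of the ventricular gap junction, read 7633 ± 151 in the KO heart and 10957 ± 182 in the WT heart (-0.72). Kcna5, an outward potassium channel, read 97.5 ± 5.06 and 152 ± 6.69 (-0.81). On the other side were Cacna1h, a T-type calcium channel, at 383 ± 12.5 and 153 ± 5.59 (1.66), and Scn4b, a sodium channel subunit, at 84.3 and 59.9 (0.94). The potassium channel subunit Kcne1 read 694 and 295 (1.44), and its 2 other detected probes, both close to the detection limit, gave 0.00.

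Fetal and stress genes of the heart lay on both sides of 0, with 6 of 13 above 0 and a median of -0.06. Hamp, the iron hormone hepcidin, read 529 ± 17.5 in the KO heart and 227 ± 7.43 in the WT heart (1.44). Acta1, skeletal actin, read 2826 and 1708 (0.68) and the natriuretic peptide Nppb read 5302 and 3573 (0.51), while its relative Nppa (29063 and 31963, -0.06) and the slow myosin Myh7 (181 and 248, -0.49) did not stand higher. The cardiac transcription factors had a median of -0.02, and Hand2 was the only member past 1.5-fold (155 and 101, 0.94). Atrial genes had a median of 0.08, with 6 of 11 above 0 and none past 1.5-fold. The autophagy gene Map1lc3a read 1908 and 858 (1.24, other probe 0.59) in a list with a median of -0.02.

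Genes of the immediate early response, which are transcribed within minutes of a stimulus, were higher in the KO heart. Of 21 detected members 19 lay above 0 and 7 were at least 1.5-fold higher, with a median of 0.38, and none was at least 1.5-fold lower. Fos read 154 ± 5.78 in the KO heart and 70.1 ± 2.64 in the WT heart (1.77). Atf3 read 108 ± 5.56 and 70.3 ± 3.42 (1.06), and Zfp36, which promotes the decay of inflammatory messages, read 862 and 536 (0.77). Dusp1 (2594 and 2579, -0.05) and Socs3 (127 and 140, -0.11) were the members below 0. In this list 18 of 21 genes belonged to the group with the shortest spans, as did 8 of 12 genes of MHC class I below.

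Metallothioneins and glucocorticoid-responsive genes followed the same direction, with 16 of 21 above 0, 8 at least 1.5-fold higher and a median of 0.48. Mt1, a metal-binding protein, read 21600 ± 516 in the KO heart and 7335 ± 196 in the WT heart (1.35). Its relative Mt2 was detected in the KO heart only (82.4 and 46.6, 0.90 as a bound). Cdkn1a, the cell cycle inhibitor p21, read 980 ± 28.5 and 473 ± 15.1 (1.16), and its 2 other probes gave 1.34 and 1.46. The chaperone regulator Fkbp5 read 367 and 233 (0.82) and the clock gene Per1 read 783 and 508 (0.72). Members such as Tsc22d3 (3287 and 2935, 0.07), Sgk1 (2301 and 2753, -0.30) and Klf9 (4345 and 4969, -0.33) did not stand higher.

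Mt1 had the brightest signal among the genes past 2-fold, and its promoter is shown for its matches to the core of the metal response element. The sequence runs from 250 bases before to 50 bases after the start in the RefSeq table, chr8:94178839-94179138 on the plus strand of GRCm38.p6, with metal response element cores in capitals.
Mt1: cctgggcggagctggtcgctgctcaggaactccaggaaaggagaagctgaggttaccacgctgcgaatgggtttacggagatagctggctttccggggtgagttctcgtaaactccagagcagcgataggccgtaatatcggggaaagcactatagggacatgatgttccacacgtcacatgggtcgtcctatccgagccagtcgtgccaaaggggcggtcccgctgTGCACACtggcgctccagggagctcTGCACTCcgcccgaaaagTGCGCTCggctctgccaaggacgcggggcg
The core was searched as TGCACNC or TGCGCNC on both strands. It occurs 3 times here, and at least once in 25.7% of 32851 promoters of the same length. A match describes these letters and not the binding of a factor. The Fos promoter of the same length was searched for a single exact spelling each of the serum response element and the cyclic AMP response element. It held no match to either spelling and is not shown. Forms with other letters and sites outside this stretch were not searched. The search therefore cannot say whether Fos carries these elements. The exact spellings occur in 0.0639% and 1.79% of the promoters.

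Interferon response genes divided into members well above 0 and members below it. Of 26 detected 16 lay above 0, 5 passed 1.5-fold upward and 2 downward, with a median of 0.23 that was 0.05 when the probes of a gene were averaged. Ifi27l2a read 1311 ± 37.5 in the KO heart and 489 ± 21.8 in the WT heart (1.54). The immunity-related GTPases Irgm2 and Igtp read 480 ± 14.9 and 390 ± 9.71 in the KO heart against 220 ± 8.57 and 204 ± 10.4 in the WT heart (1.35 and 1.16). Bst2, a membrane protein that tethers virus particles, read 151 ± 19.2 and 68.1 ± 4.43 (1.81). Rsad2 (275 and 435, -0.69), Oasl2 (156 and 221, -0.57) and Trim30a, detected in the WT heart only (-0.72 as a bound), lay below 0.

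The promoter of Bst2 is shown as that of the interferon-responsive gene with the largest difference. It covers chr8:71537423-71537722 on the minus strand, with the capitals marking matches to GAAA, any pair of bases and GAAA again, a form of the interferon-stimulated response element.
Bst2: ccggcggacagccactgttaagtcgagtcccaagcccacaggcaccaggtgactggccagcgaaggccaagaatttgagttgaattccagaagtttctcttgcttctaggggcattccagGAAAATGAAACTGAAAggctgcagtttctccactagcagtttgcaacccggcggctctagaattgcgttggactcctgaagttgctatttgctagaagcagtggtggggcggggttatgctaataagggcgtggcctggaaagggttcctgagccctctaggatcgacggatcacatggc
The element was searched on both strands, its 2 matches overlap each other, and 3.44% of 32851 promoters hold at least 1.

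Genes of antigen presentation were higher in the KO heart by amounts under 2-fold. For MHC class I, which displays peptides made inside the cell, 10 of 12 detected genes lay above 0 and 5 were at least 1.5-fold higher, with a median of 0.52. B2m, the shared light chain, read 3582 in the KO heart and 2292 in the WT heart (0.59, other probe 0.73) and the immunoproteasome subunit Psmb10 read 1249 and 845 (0.61). Tapbp was the member furthest below 0 (138 and 199, -0.61), though its other probe gave -0.04. All 6 detected MHC class II genes lay above 0, with a median of 0.40, H2-Ab1 being the highest (847 and 530, 0.76). Macrophage genes, which could carry class II messages, had a median of 0.05, with Lyz2 lower (696 and 1000, -0.55) and Csf1r at 196 and 171 (0.32, other probe -0.59). The summed corrected intensity of the macrophage list was 2886 in the KO heart and 3179 in the WT heart.

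Enzymes that remove reactive oxygen had a median of 0.32, with 16 of 19 above 0. Gsta4, which conjugates lipid aldehydes, read 554 in the KO heart and 310 in the WT heart (1.01), and Sod1 read 4555 and 2831 (0.64, other probe 0.24). Heat shock genes had a median of -0.11, and their highest member was Hspb7, a small heat shock protein of heart muscle (2761 ± 63.3 and 956 ± 42.2, 1.56). The endoplasmic and mitochondrial chaperones Hsp90b1 (2663 and 3218, -0.35) and Hspa9 (9584 and 11428, -0.47) lay below 0.

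**Figure D4:**
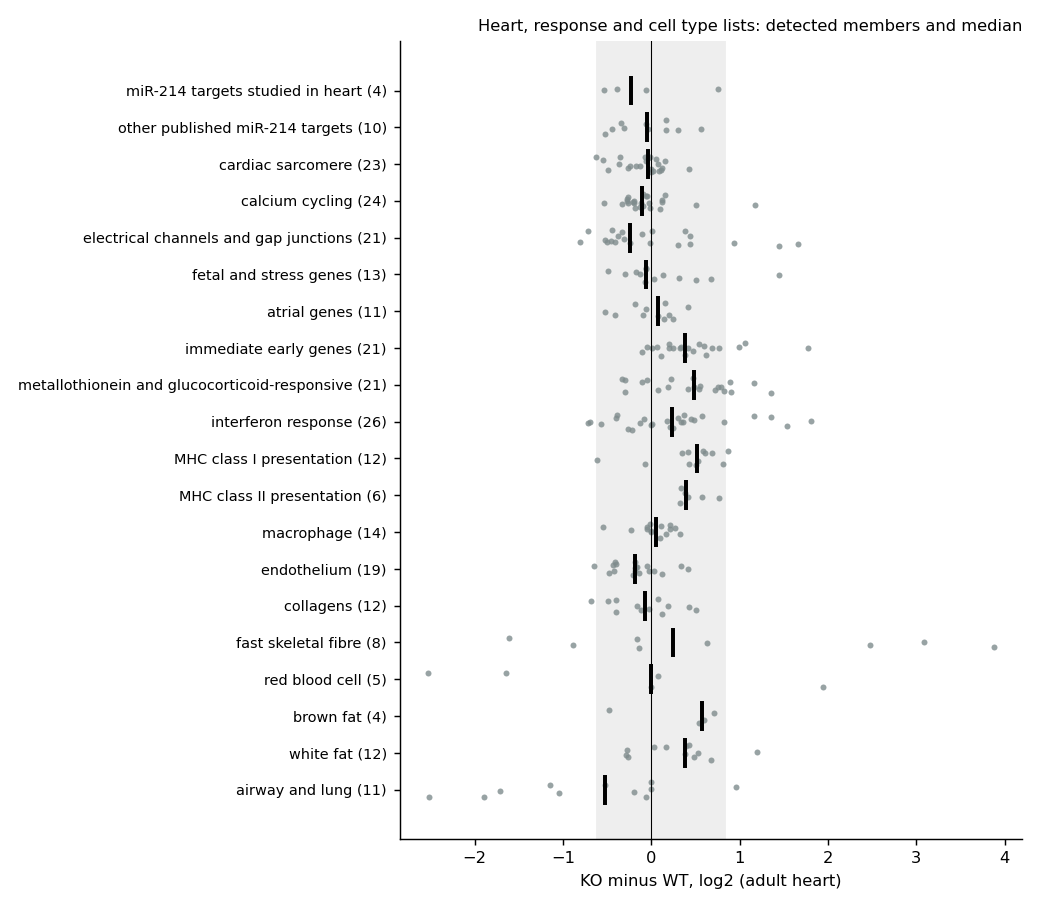
KO minus WT log2 differences of the detected members (points) and the list median (black bar) for miR-214 targets, heart lists, response lists and markers of other cell types, with the number of detected members in brackets. The grey band holds 95% of all genes, -0.61 to 0.83. Sarcomere genes (median -0.04) cluster at 0, MHC class I (0.52) and metallothionein and glucocorticoid-responsive genes (0.48) lie right of it, and the airway and lung list (-0.52) has 5 of 11 members beyond 2-fold on the left.

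Markers of cells from neighbouring tissues differed between the pools. Of 18 airway and lung genes on the array 11 were detected, and 5 of these were at least 2-fold lower in the KO heart. Scgb1a1, the secretory protein of club cells, read 3020 ± 75.6 in the KO heart and 5858 ± 116 in the WT heart (-1.15). Cyp2f2, Cyp2a5 and Bpifa1, also abundant in the airway lining, read 263, 147 and 228 in the KO heart against 787, 682 and 754 in the WT heart (-1.71, -2.52 and -1.89). The other 3 Cyp2a5 probes ranged from -2.60 to -2.29. Sftpd read 89 and 154 (-1.05), and Sftpb was detected in the WT heart only (51.3 and 62.5), with no fold. Sftpc and Ager, markers of alveolar cells, and Nkx2-1, a factor of lung epithelium, were not detected. Tff2 stood on the other side (107 and 72.5, 0.96), and Bpifb1 gave -0.20 with its other probe at 0.14. The summed corrected intensity of the list was 3870 in the KO heart and 8443 in the WT heart. Scgb1a1 was by far the brightest member of the list. Airway messages were thus present in both pools, and the sum and each list member past 2-fold were lower in the KO pool. Clca1 of mucous epithelium, which is not in the list, stood higher there (164 and 60.7).

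Blood and platelet genes were also unequal. Slc4a1, the anion exchanger of red cells, read 67.6 ± 4.62 in the KO heart and 235 ± 7 in the WT heart (-2.53), and Alas2, the first enzyme of haem synthesis in red cells, read 533 ± 26.9 and 1564 ± 53.6 (-1.65). The globin genes did not follow, with Hba-a1 at 25897 and 25003 (0.08) and Hbb-b2 at 206 ± 16.7 and 81.3 ± 4.45 (1.94). Globin genes have near-identical copies, so these probes may read more than 1 gene. The platelet genes Tubb1 and Ppbp were detected in the WT heart only, at least 3.08-fold and 2.73-fold lower in the KO heart. Tubb1 passed 2-fold under 9 of 9 other settings and Ppbp under 6 of 9, whereas the platelet factor Pf4 read 166 and 172 (0.00).

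Fat markers were detected in both pools. Of 4 detected brown fat genes 3 lay above 0, with a median of 0.57. Ucp1, the heat-producing carrier of brown fat, read 1315 ± 40.5 in the KO heart and 912 ± 26.1 in the WT heart (0.54), and Cidea read 2380 and 1436 (0.71). Prdm16, a regulator of brown fat, lay below 0 (101 and 133, -0.48), while Dio2 and Elovl3 of brown fat were not detected. White fat genes had a median of 0.38 with 9 of 12 above 0, Adig being the highest (316 and 167, 1.20) and Adipoq at 1073 and 800 (0.48). The summed corrected intensity of the white fat list was 16599 in the KO heart and 16587 in the WT heart. Its brightest members, Pnpla2 (6818 and 7235, -0.28) and Scd1 (3385 and 3097, 0.03), weigh most in that sum, so it says little about the dimmer members.

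Endothelial genes had a median of -0.18 with 15 of 19 below 0, led by the transcription factor Sox18 (412 and 644, -0.65), with Pecam1 at 979 and 1094 (-0.19) and Vwf at 1135 and 914 (0.33). Fibroblast and collagen genes had medians of 0.04 and -0.08. Cell cycle genes were mostly near detection, with a median of -0.03 and 3 of 23 at least 1.5-fold lower, namely Mcm6, Nusap1 and Prc1. The part that neighbouring tissue or blood in the samples plays in the other lists was not tested.

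Differences of the adult pair were set beside those of the P14 heart and the tibialis anterior, which use other arrays and other pools. Of the 113 genes at least 2-fold higher in the adult KO heart that were also detected at P14, 78.8% lay in the same direction there, against 50.6% of all genes detected in both pairs. In the tibialis anterior 68.6% of 105 did, against 45.3%. Of the genes at least 2-fold lower, 69.7% of 33 lay in the same direction at P14 (48.7% of all genes) and 79.3% of 29 in the tibialis anterior (54.2%). At P14 6 of the higher genes were past 2-fold in the same direction, which is 5.31% of the adult set and 35.3% of the P14 set, while 0.178% of all genes were. In the tibialis anterior 18 were, which is 17.1% and 21.2% of the sets, against 0.984% of all genes. Of the lower genes 7 were at P14, which is 21.2% and 13% of the sets, against 0.565% of all genes. In the tibialis anterior 11 were, which is 37.9% and 42.3%, against 0.301% of all genes. The 18 higher genes shared with the tibialis anterior include the liver genes Apoa2 (1.24, a bound, in the adult heart and 3.08 there) and Apoc1 (1.71 and 2.91). All detected liver list genes were higher in the KO tibialis anterior, from 1.70 (Trf) to 3.08. In the adult heart Kng1 (-0.13), Pon1 (-0.33) and Trf (-0.89) lay below 0. The part of liver messages in the overlap was not tested.

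Among the 119 higher genes 6 were also at least 1.5-fold higher in both other pairs. They were Angptl4, Cdkn1a, Mt1, Nudt6, Pdk4 and Ucp3. In the order P14 heart, adult heart and tibialis anterior, Pdk4 differed by 0.83, 2.23 and 0.84 and Angptl4 by 2.10, 1.27 and 1.53. Mt1 differed by 0.97, 1.35 and 1.79, and Cdkn1a by 0.86, 1.16 and 0.64. Among the 39 lower genes 7 were at least 1.5-fold lower in both other pairs, namely Cops8, Ctsc, Gin1, Ipo9, Rgl1, Rpe and Thap4. All but Ctsc lie on chromosome 1.

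Some adult differences were as large in 1 other pair. Mylpf differed by 2.80 at P14, 2.47 in adult hearts and -0.07 in the leg muscle, and Csrnp1 by 0.01, 1.84 and 2.32. Fast fibre genes differed more widely at P14. Tnnc2 (956 in the KO heart, 79.5 in the WT heart), Tnnt3 (224 and 58.1) and Actn3 (190 and 61.6) stood higher there but were under detection in both adult hearts. Mybpc2 (-0.30), Tmod4 (-0.03) and Casq1 (-0.42) lay below 0 at P14. Other adult differences were smaller or of opposite sign in both other pairs. Fos differed by 1.77 in the adult heart, against 0.10 at P14 and -0.03 in the tibialis anterior. Cacna1h differed by 1.66, against -0.70 and 0.30, and Irgm2 by 1.35, against -0.28 and 0.13. The list medians of complex I were 0.14 at P14, 0.52 in adult hearts and -0.11 in the leg muscle, and those of cytosolic ribosomal proteins 0.14, 0.47 and 0.15. The immediate early genes had medians of 0.12, 0.38 and -0.01, and metallothionein and glucocorticoid-responsive genes 0.33, 0.48 and 0.18. The group of genes with the shortest spans had a median of 0.17 at P14, which the complex I and cytosolic ribosomal medians there did not exceed. The differences between pairs, and the part of gene span in their agreement, were not tested.

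**Figure D5:**
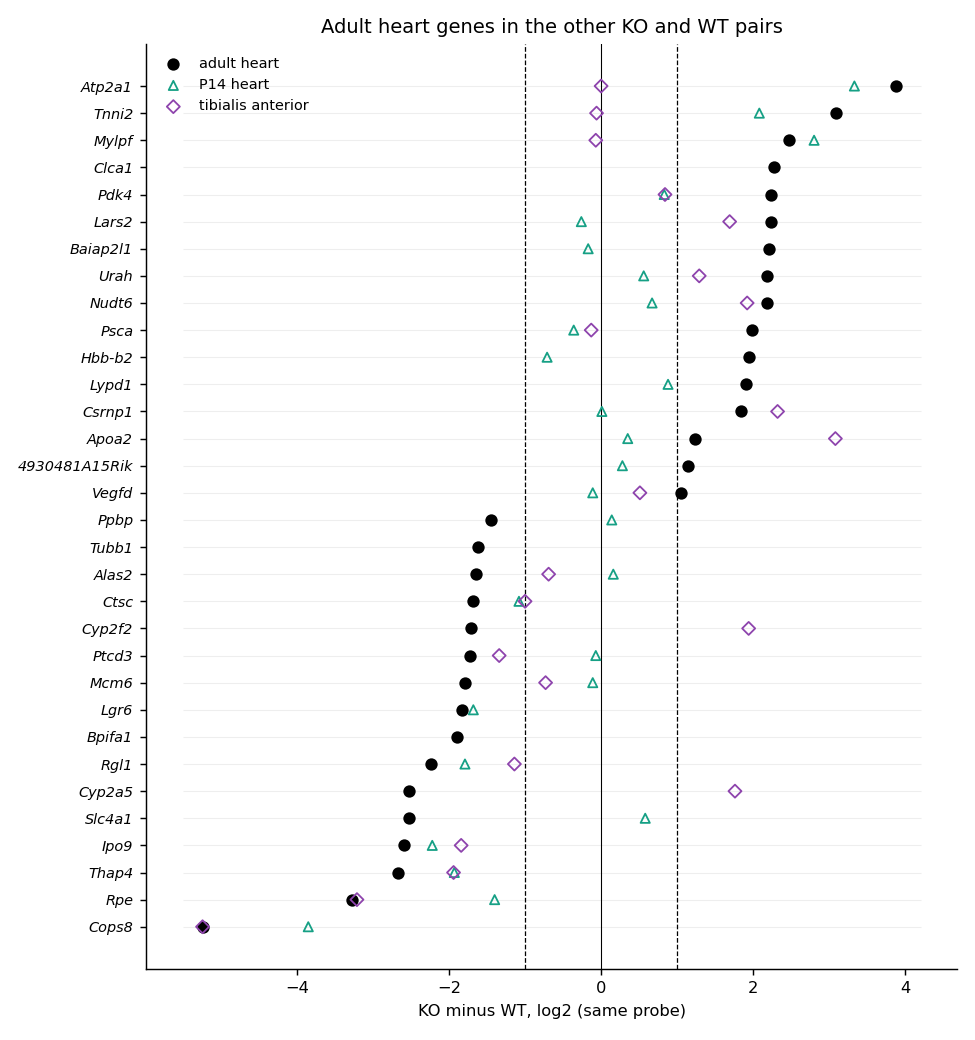
KO minus WT log2 differences of the genes with the largest adult heart differences (filled circles), with the same probe in the P14 heart (triangles) and the tibialis anterior (diamonds) where it was detected there. Dashed lines mark 2-fold. Cops8, Rpe, Thap4, Ipo9 and Rgl1 lie left of 0 in the 3 pairs, while Atp2a1 differed by 3.33 at P14, 3.88 in adult hearts and 0.00 in the leg muscle.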

How the data were processed

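Total RNA of hearts and muscles was labelled with Cy3 and read on Illumina mouse bead arrays, 1 array per group with cDNA of 3 mice. Per the file headers, the deposited scanner table gives for each probe the mean bead intensity, its standard error, a detection p-value and a bead count, none of them normalized. The authors also deposited processed intensity values. Set against the scanner table, they keep its rank order and lie within 0.343% of the mean sorted signal, the form of quantile normalization without background correction. All 6 arrays were corrected here with normexp (limma 3.58.1, R 4.3.3, offset 16, negative controls inferred from detection p-values), quantile-normalized and turned into log2. Tables were handled in Python 3.11.15 with pandas 2.3.3 and numpy 2.4.6. The normalization was tested on simulated data.

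The platform annotation names 34885 probes with 1 gene, 18 with several, and does not list 10378. Where a gene was detected on 1 array, the other value was raised to the lowest detected signal of its array, giving a bound, and a bound under 1-fold counted as 0. Probes were read on a median of 43 (KO) and 44 (WT) beads, with a bead standard error of 4.15% and 4.14% of the signal. The median bead standard error of a difference was 0.10.

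Genes named are the 12 highest and 12 lowest among those detected on both arrays and at least 3 bead standard errors from 0, 4 bounds per direction, the targets, host locus and sex-linked genes, and, of each list described, its defining members and the largest differences. The genes also set beside the other pairs, the chromosome 1 genes and the grouping by genomic span were added after values were seen. The 54 gene lists and the question itself were chosen with earlier results of these data known. Sequences are from RefSeq tables of GRCm38.p6.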

Additional observations from a re-analysis of the deposited data

Results flagged for a closer look

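Probes that the platform annotation does not list were left out of the gene comparison. Of 2561 such probes detected on at least 1 adult heart array, 51 were at least 2-fold higher in the KO heart (1.99%) and 12 at least 2-fold lower (0.469%).

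The other 5 results are genes that passed 2-fold in opposite directions in the adult heart and in another pair, and this difference between pairs was not tested. Atf3 differed by 1.06 in the adult heart and by -1.37 at P14. Ndufb10 differed by 1.75 in the adult heart and by -4.17 at P14, and its other probe gave 0.15 in the adult heart. Cyp2a5 and Cyp2f2 differed by -2.52 and -1.71 in the adult heart and by 1.76 (a bound) and 1.94 in the tibialis anterior. Retnla, a gene of alternatively activated macrophages and fat, differed by 1.39 in the adult heart and by -1.59 in the tibialis anterior.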

How the results depend on the processing

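Of the counts past a fold, those of 119 higher and 39 lower genes at 2-fold and of 697 higher and 305 lower genes at 1.5-fold depended on the scale of dim signals. Without background correction they were 61, 20, 434 and 145, with a larger normexp offset of 50 they were 61, 20, 435 and 146, and with the deposited values 61, 20, 434 and 145. Median centring in place of quantile normalization gave 76 genes higher at 2-fold and 511 lower at 1.5-fold. Under the 10 alternatives no list median of 0.2 or more in size, and no named gene past 2-fold, changed direction. The summed intensity of fast skeletal fibre genes did so without Myl1, an alternative chosen after seeing the data (0.83, against -0.61 with it, log2 of KO over WT). Each of the 12 highest and 12 lowest named genes detected on both arrays passed 2-fold under all 10, whereas of the 8 named bounds Apoa2, 4930481A15Rik, Vegfd and Ppbp did not pass it under every setting that gave a value (lowest sizes 0.68, 0.62, 0.56 and -0.88). Of 520 list medians under these alternatives 510 moved by at most 0.2, and the exceptions include the fast skeletal fibre list (0.03 to 1.16) and the airway and lung list (-1.10 to -0.24). No paired analysis was possible because each group has 1 array. With 1 pool per group no difference can be set against the spread between mice, and signals near 60 are close to the detection limit.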
